A study of Mus musculus with 4 samples.

Results

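Transcripts of the basement membrane, of the collagens and of the integrins were followed as mouse embryonic stem (ES) cells became epiblast-like aggregates (ELA), with and without 2 inhibitors of chromatin-modifying enzymes. The genes were 41 of the 36039 on the array and were read by 56 of its 55681 probes. They were taken by name from the gene column of the scanner files and comprised 13 collagen chains, 7 laminin chains, 10 other matrix proteins and matrix enzymes, and 11 matrix receptors, which were integrin chains and dystroglycan (Dag1). All 41 were kept whatever their level.

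Cells of all groups were E14Tg2A, an ES cell line of strain 129/Ola, and each group was measured on 1 single-colour array that held a pool of RNA from 3 separate experiments. ES cells, grown on gelatin in medium with serum and LIF, were taken at day 0 without drug. ELA were the same cells after 2 days as floating aggregates in a minimal medium without serum or LIF. The AZA group was ELA formed with 50 nM 5-azacytidine, which inhibits DNA methyltransferases, and the CHQ group was ELA formed with 100 µM 5-carboxy-8-hydroxyquinoline, which inhibits histone lysine demethylases. Comparing ELA with ES asked how the matrix program differs between naïve and primed cells, and comparing each drug with ELA asked how it differs when these enzymes are inhibited during priming. Priming, loss of serum and LIF, and the change from gelatin to floating aggregates came together, so ELA minus ES cannot tell them apart.

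A basement membrane is a thin sheet of matrix on which epithelia rest. Laminins, each built of an alpha, a beta and a gamma chain, assemble at the cell surface, where integrins and dystroglycan hold them. Type IV collagen forms a separate network, and nidogens and the proteoglycan perlecan tie the networks together. In the embryo around implantation, and in aggregates of ES cells, such a sheet lies between primitive endoderm and epiblast, and much of it is secreted by primitive endoderm. Fibrillar collagens belong to interstitial matrix instead, and every collagen chain is hydroxylated on proline and lysine by enzymes that need iron and 2-oxoglutarate, cosubstrates that Jumonji-type histone demethylases need too.

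Levels are normalised log2 intensities of a gene's brightest probe, and differences are in log2 units, so that 1 stands for 2-fold. The ES and ELA arrays shared a slide, with median local backgrounds of 59 and 77 intensity units, and the AZA and CHQ arrays shared another slide, with 14 and 13. Drug and slide therefore cannot be told apart in AZA minus ELA or CHQ minus ELA, whereas ELA minus ES and CHQ minus AZA compare arrays of a single slide. The ELA array also enters 3 of the 4 comparisons. The ELA array had the smallest share of gene spots well above background, 55.1%, beside 60.6% in ES, 69.1% in AZA and 69.2% in CHQ, and the most outlier spots, 523 beside 188 to 308. The pooled SD between repeated spots of a probe was 0.12 to 0.17, which covers spotting and reading but no biology. No group had a replicate array, so no difference was tested. A gene was called higher or lower when its difference reached 1 in size, its level averaged 7.5 or more over both arrays and either array had it well above background. The 5 markers of pluripotent cells were well above background on every array.

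Of the 41 genes, 35 were well above background on all 4 arrays, Col3a1, Col4a3, Lama4 and Lox on some of them, and Col5a2 and Itga2 on none. Between ES and ELA, 33 genes were bright enough to test against the rule, of which 3 (9.09%) were called higher in ELA and 5 (15.2%) lower, beside 4.51% higher and 5.5% lower among all genes tested. With AZA, 10 of 31 (32.3%) were called higher than in ELA and 5 (16.1%) lower, beside 14.2% and 11.4% of all genes. With CHQ, 11 of 33 (33.3%) were called higher and 3 (9.09%) lower, beside 14.8% and 11.9%. Between the drugs, 7 of 34 (20.6%) were called higher with CHQ than with AZA and 2 (5.88%) lower, beside 5.6% and 4.8%, and the uncalled differences included, CHQ read above AZA for 20 of the 34. With 41 genes and no replicate array, these shares are a description of the 4 arrays. In bulk RNA of whole aggregates, fewer cells of a type and less RNA per cell cannot be told apart.

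The genes that moved under both drugs came from different roles. Lamc1, Nid1, Nid2, Hspg2, Fn1, Itgav and Itgb4 were called higher with AZA and with CHQ, Col1a2 and Itga1 were called lower with both, and Mfap4 was called higher with AZA and lower with CHQ. Of 18702 genes of the array tested against ELA under both drugs, 9.89% were called higher with both, 7.73% lower with both and 0.102% in opposite directions, and of the 31 such genes here 22.6%, 6.45% and 3.23% were. All 7 of the first set had their lowest level on the ELA array, and Col1a2 and Itga1 had their highest there, so the reading of that 1 array, the one with the fewest spots above background and the most outlier spots, bears on every one of these calls. Being called in the same direction with both drugs already places ELA beyond both drug arrays, so only the ES level was free. Among the 35 genes well above background throughout, 14 (40%) were lowest on the ELA array and 14 (40%) were highest on the CHQ array, beside 23.8% and 22.7% of 20783 genes of the array with the same detection. All 46 called differences of the 41 genes kept their sign under 6 other ways of processing, and 24 stayed at 1 or more under all 6.

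**Figure D1:**
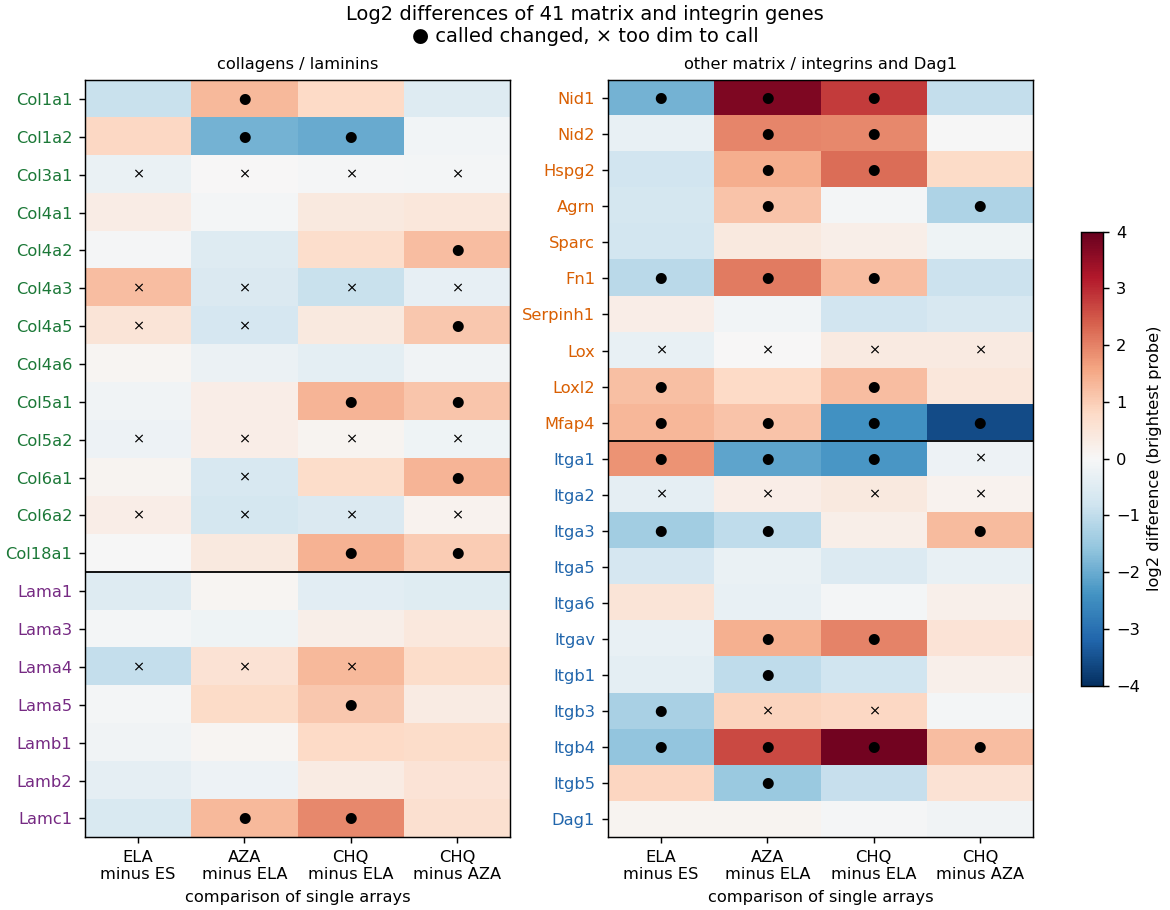
Log2 differences of the 41 genes in 4 comparisons of single arrays, as colours from -4 to 4, with a dot where a difference was called and a cross where the gene was too dim to call. Under AZA and CHQ the dots on red gather among the nidogens, perlecan, fibronectin, Lamc1, Itgav and Itgb4, and Mfap4 is red with AZA and blue with CHQ.

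Promoter sequences were available in the RefSeq table (build GRCm38.p6) for 26 of the 41 genes, in 31 windows. They are shown for the genes called in the same direction under both drugs, since DNA methyltransferases, which AZA inhibits, act on CpGs. Each run gives the 250 bases before the annotated start, 5′ to 3′ on the gene's strand, with every CpG in capitals. Nid1, Hspg2 and Itgav, called higher with both drugs, read as follows.
Nid1: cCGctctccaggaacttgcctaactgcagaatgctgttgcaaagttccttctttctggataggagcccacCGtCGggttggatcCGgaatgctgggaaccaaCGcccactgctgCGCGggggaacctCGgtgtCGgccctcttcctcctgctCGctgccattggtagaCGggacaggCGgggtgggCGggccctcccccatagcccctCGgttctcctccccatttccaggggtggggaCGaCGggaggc
Hspg2: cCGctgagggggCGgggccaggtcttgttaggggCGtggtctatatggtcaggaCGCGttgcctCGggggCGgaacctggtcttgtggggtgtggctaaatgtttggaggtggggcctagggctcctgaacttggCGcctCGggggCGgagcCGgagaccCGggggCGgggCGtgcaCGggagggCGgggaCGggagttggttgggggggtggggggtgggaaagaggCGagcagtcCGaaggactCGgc
Itgav: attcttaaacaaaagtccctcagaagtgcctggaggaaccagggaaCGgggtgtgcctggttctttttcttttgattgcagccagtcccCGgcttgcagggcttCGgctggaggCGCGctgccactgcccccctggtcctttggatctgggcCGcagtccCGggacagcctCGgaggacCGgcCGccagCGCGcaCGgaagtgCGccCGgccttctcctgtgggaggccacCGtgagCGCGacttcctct
Col1a2 and Itga1, called lower with both drugs, read as follows.
Col1a2: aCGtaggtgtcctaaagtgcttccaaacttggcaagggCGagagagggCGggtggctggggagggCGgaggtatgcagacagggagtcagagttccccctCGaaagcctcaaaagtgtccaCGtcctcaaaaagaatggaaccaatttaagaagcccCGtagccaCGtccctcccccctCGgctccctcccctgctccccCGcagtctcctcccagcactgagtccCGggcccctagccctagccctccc
Itga1: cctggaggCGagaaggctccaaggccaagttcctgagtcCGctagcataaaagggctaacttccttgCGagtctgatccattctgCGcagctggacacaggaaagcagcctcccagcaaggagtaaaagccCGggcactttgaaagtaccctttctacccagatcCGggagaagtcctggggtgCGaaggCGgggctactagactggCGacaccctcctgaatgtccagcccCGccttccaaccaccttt
The window of Nid1 lies at chr13:13437352-13437601 on the plus strand and also overlaps the pseudogene Gm7426. That of Hspg2 lies at chr4:137468553-137468802 and that of Itgav at chr2:83724147-83724396, both on the plus strand. That of Col1a2 lies at chr6:4505368-4505617 on the plus strand, and that of Itga1 at chr13:115101965-115102214 on the minus strand. The 26 genes do not include Lamc1, Nid2, Fn1, Itgb4 and Mfap4.

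Hspg2 held 20 CpGs, Itgav 18 and Nid1 16, while Col1a2 held 11 and Itga1 held 10. Genes called with a single drug did not keep that order. Of those lower with AZA, Itgb1 held 21, Itgb5 18, and Itga3 5 and 22 in separate windows. Agrn, higher with AZA, held 8 and 35. Of those higher with CHQ, Col5a1 held 28, Lama5 19, and Col18a1 3 and 12. Genes called in no comparison ranged from Col3a1 at 0 to Dag1 at 36. The median was 12 over the 31 windows of the 41 genes and 6 over all 32851 windows of the table, whose quartiles were 2 and 16. With so few promoters, this is a description of the sequences, and methylation was not measured. The letters GGGCGG, looked for on both strands, stood in 22 of the 31 windows (71.0%), beside 32.7% of all windows. CCAAT stood in 10 (32.3%), beside 33.8%, and TATAAA in 1 (3.23%), beside 12.4%. ACGTG, the core letters of the hypoxia response element, stood in 3 (9.68%), beside 16.6%, and Col1a2 held it 2 times. A match is no evidence of a factor at work, and a window without one says nothing of the factor.

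The main chains of type IV collagen, the network collagen of basement membranes, were called in few comparisons. Col4a1 and Col4a2 form the trimer found in nearly every basement membrane, and their starts in the RefSeq table lie 21 bases apart on opposite strands. Col4a1 read 9.96 in ES, 10.25 in ELA, 10.19 in AZA and 10.65 in CHQ, a range below 1, and was called in no comparison. Col4a2 read 9.54, 9.50, 8.98 and 10.20 in the same order, so that CHQ exceeded AZA by 1.23 (2.34-fold) while neither drug was called against ELA. Thus, within the second slide, the partner chains differed by 0.46 for Col4a1 and by 1.23 for Col4a2.

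The remaining type IV chains, which build the more specialised networks of kidney, lung and skin, were dim or uneven. Col4a5 read 7.17 in ES, 7.68 in ELA, 7.01 in AZA and 8.07 in CHQ, and CHQ exceeded AZA by 1.07. Col4a3 was well above background in ELA at 7.08 and with AZA at 6.50 but not in ES or with CHQ, and ELA exceeded ES at least 2.10-fold. For Col4a6, the brightest probe stayed between 8.22 and 8.62 on all arrays, whereas the other probe read 6.94 in ES, 7.92 in ELA and 7.60 in CHQ and was not well above background with AZA. The brightest probe of Col4a6 thus gave -0.15 for CHQ minus AZA, while by the other CHQ exceeded AZA at least 2.66-fold, and which of them reads the gene's main transcript was not tested.

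The fibrillar collagens of interstitial matrix did not move together. Col1a1 and Col1a2 encode the chains of type I collagen, the main collagen of bone, skin and tendon. Col1a1 read 8.61 in ES, 7.72 in ELA, 9.02 in AZA and 8.51 in CHQ, and was called higher with AZA by 1.3 (2.46-fold). Col1a2, read on mm9 at chr6:4490619-4490678, stood at 8.72, 9.57, 7.69 and 7.56, and was called lower with AZA, at a difference of -1.88 (3.68-fold), and with CHQ, at -2.0 (4.01-fold). The partner chains of type I collagen therefore lay on opposite sides of the ELA level under both drugs. Col3a1 lay between 6.66 and 6.98 and Col5a2 between 6.12 and 6.39, too dim for a call, and Col5a2 was not well above background on any array.

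Col5a1, a chain of the type V collagen that starts and limits fibril growth, was higher with CHQ alone. It read 9.70 in ES, 9.57 in ELA, 9.84 in AZA and 10.94 in CHQ, so CHQ exceeded ELA by 1.37 (2.59-fold) and AZA by 1.1. Col18a1, the basement membrane collagen whose end fragment is endostatin, read 14.58, 14.55, 14.94 and 15.94, and CHQ exceeded ELA by 1.39 (2.62-fold) and AZA by 1.01. A separate probe of Col18a1 gave 1.48 and 0.79 for these differences, and spike-in scaling gave 0.53 and 0.59, below the call. Col6a1, of the beaded-filament collagen VI, read 7.68, 7.80, 7.15 and 8.52, and CHQ exceeded AZA by 1.37 (2.59-fold), whereas its partner Col6a2 stayed between 6.91 and 7.62 and was too dim to call.

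Over the collagens as a group, 0 of 8 tested were called between ES and ELA, beside 4.51% higher and 5.5% lower of all genes. Their median difference was 0.02, and -0.53 when the arrays were scaled on spike-in RNA, where that of all genes tested was -0.58. With AZA, 1 was called higher and 1 lower of 7, each 14.3%, beside 14.2% and 11.4% of all genes, with a median of -0.06. With CHQ, 2 were called higher and 1 lower of 9 (22.2% and 11.1%), beside 14.8% and 11.9%, with a median of 0.71 (0.15 on spike-in scaling), beside a median of -0.08 over all genes tested. Between the drugs, 5 of 9 collagens (55.6%), Col4a2, Col4a5, Col5a1, Col6a1 and Col18a1, were called higher with CHQ and 0 lower, beside 5.6% and 4.8% of all genes, with a median of 1.01 beside -0.02 over all genes. Col4a1 also read above AZA, uncalled, and Col1a1 (-0.51), Col1a2 (-0.12) and Col4a6 (-0.15) read below it. That comparison lies within a slide, and its median was 0.59 on spike-in scaling, where fewer of these collagens passed 1. The count of 5 was not reached under any of the 6 other ways of processing. They gave 1 to 4 collagens called higher with CHQ and 0 lower, with medians from 0.59 to 1.08.

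Enzymes and helpers that modify, fold, trim or cross-link collagen made a list of 24 genes outside the 41. With AZA, 8 of 19 tested were called higher and 0 lower, beside 14.2% and 11.4% of all genes. With CHQ, 5 of 20 were called higher and 1 lower, beside 14.8% and 11.9%, and between ES and ELA 3 of 19 were called lower and 0 higher, beside 5.5% and 4.51%. Plod2, the lysyl hydroxylase of collagen telopeptides, read 10.21 in ES, 9.93 in ELA, 12.22 in AZA and 13.09 in CHQ, differences from ELA of 2.29 and 3.15. P4ha2, a catalytic chain of collagen prolyl 4-hydroxylase, read 11.34, 11.02, 13.13 and 13.26, and so was called higher by 2.11 and 2.24. Adamts2, the protease that trims the amino end of procollagen, read 7.90, 7.14, 9.50 and 11.72, with differences from ELA of 2.37 under AZA and 4.59 under CHQ.

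Other processing genes were called lower in ELA than in ES and higher again with AZA. Pcolce, which speeds the trimming of the carboxyl end of procollagen, read 14.48 in ES, 12.26 in ELA, 15.05 in AZA and 13.24 in CHQ. It was called lower in ELA than in ES, at -2.22, higher with AZA than in ELA, at 2.79, and lower with CHQ than with AZA, at -1.82. Adamts14, a protease of the same kind as Adamts2, read 11.59, 10.11, 12.49 and 11.01, with differences of -1.48, 2.38 and -1.47 in those comparisons. Pcolce2 gave -1.97 for ELA minus ES. Serpinh1, the collagen chaperone HSP47, is one of the 41 genes and was called in no comparison, at 11.92 in ES, 12.19 in ELA, 12.09 in AZA and 11.44 in CHQ.

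**Figure D2:**
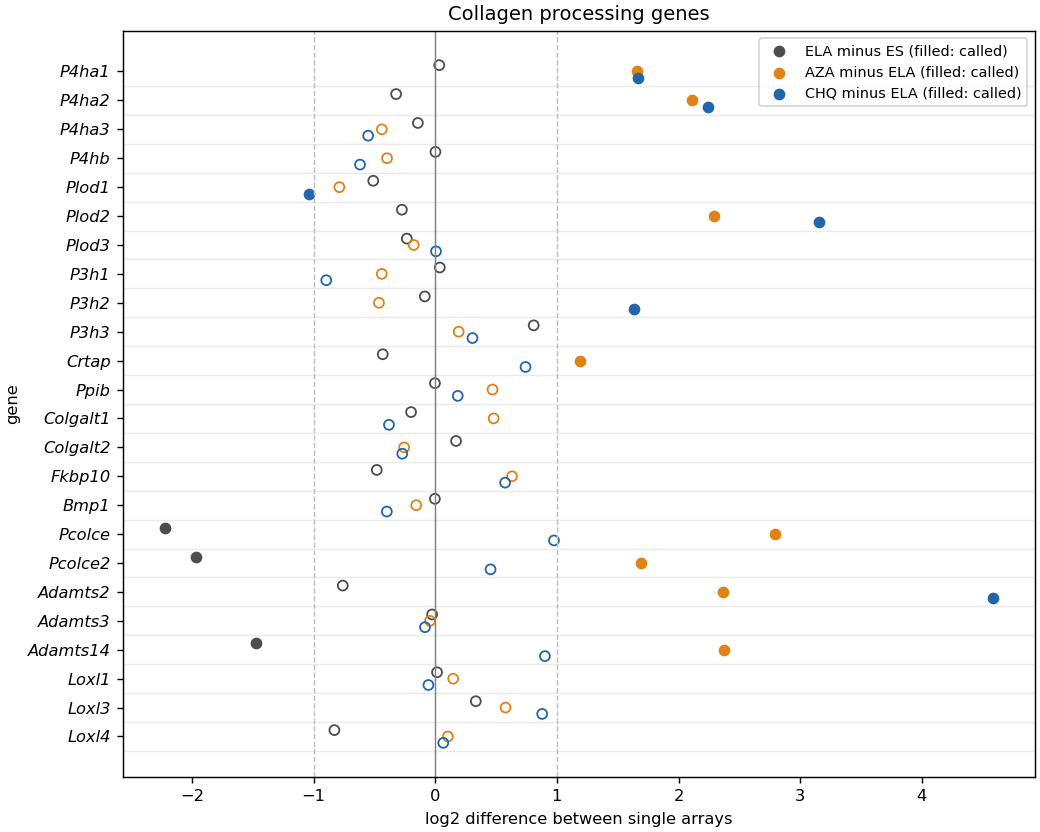
Log2 differences of 24 collagen processing genes between single arrays, with filled points where a difference was called and dashed lines at -1 and 1. P4ha2, Plod2 and Adamts2 lie right of 1 with both drugs, whereas Pcolce, Pcolce2 and Adamts14 lie left of -1 in ELA against ES and right of 1 with AZA.

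Among the laminins, the gamma chain stood out and the beta chains did not. Lamc1, the gamma chain shared by most laminins, read 13.49 in ES, 12.89 in ELA, 14.19 in AZA and 14.82 in CHQ. Its differences from ELA were 1.3 (2.46-fold) under AZA and 1.93 (3.80-fold) under CHQ, on a probe at chr1:155066156-155066215 (mm9). Lamb1, its usual beta partner, read 14.16, 14.02, 14.10 and 14.83, and Lamb2 read 10.63, 10.26, 10.05 and 10.59. Neither beta chain was called in any comparison.

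The alpha chains give each laminin its receptor binding. Lama5 read 14.30 in ES, 14.21 in ELA, 14.97 in AZA and 15.28 in CHQ, and was called higher with CHQ by 1.07 (2.10-fold), which became 0.27 on spike-in scaling. Lama1, the alpha chain of the first embryonic basement membrane, read 12.73, 12.23, 12.30 and 11.82 and was called in no comparison. Lama4 was well above background at 7.67 in ES, 7.27 with AZA and 8.0 with CHQ but not in ELA, and CHQ exceeded ELA at least 2.46-fold. Lama3 read 8.63, 8.54, 8.36 and 8.78 and was called nowhere, while its other probe gave 1.12 for CHQ minus ELA. Between ES and ELA all 6 laminins tested were lower in ELA, with differences from -0.60 to -0.09, and 0 were called, beside 4.51% higher and 5.5% lower of all genes.

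The median of the laminins was 0.07 with AZA, which turned to -0.04 on scaling to the 75th percentile and to -0.22 on spike-in scaling. With CHQ it was 0.57, which became -0.01 on spike-in scaling. That scaling put the median of all genes tested at -0.42 with AZA and -0.64 with CHQ. Between the drugs, CHQ read above AZA in 6 of 7 laminins, with a median of 0.54. There 0 were called in either direction, beside 5.6% higher and 4.8% lower of all genes. The counts were 1 higher of 6 with AZA (16.7%, beside 14.2% of all genes) and 2 higher of 6 with CHQ (33.3%, beside 14.8%), with 0 lower in both.

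Among the linkers of the basement membrane, the nidogens and perlecan were called higher with both drugs, and Nid1 had the largest difference of the 41 genes with AZA. Nid1, nidogen-1, which joins laminin to type IV collagen, read 11.58 in ES, 9.68 in ELA, 13.42 in AZA and 12.46 in CHQ, at chr13:13604435-13604494 (mm9). It was called lower in ELA, at -1.90 (3.74-fold), and higher than ELA under AZA, at 3.74 (13.4-fold), and under CHQ, at 2.79 (6.90-fold). The other 2 probes of Nid1 were dim, at 7.17 to 7.78 on the other arrays, and not well above background in ELA. By 1 of them, ES, AZA and CHQ read 0.08, 0.16 and 0.10 above ELA. These differences are of the size of the spot spread and settle no direction. By the other, ES exceeded ELA at least 1.52-fold, AZA at least 2.30-fold and CHQ at least 1.59-fold. With the ELA readings of both dim probes taken as they stand, the mean over the 3 probes was -0.86 between ES and ELA, below the call, 1.70 with AZA and 1.18 with CHQ. Nid2, nidogen-2, read 13.06, 12.75, 14.71 and 14.68. It was called higher by 1.95 with AZA (3.88-fold) and 1.93 with CHQ (3.82-fold), and the arrays with drug differed by 0.02.

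Hspg2 encodes perlecan, the heparan sulphate proteoglycan of basement membranes. It read 12.39 in ES, 11.62 in ELA, 13.08 in AZA and 13.84 in CHQ, and exceeded ELA by 1.46 (2.76-fold) and by 2.22 (4.66-fold). A dimmer probe of Hspg2 gave -0.02 with AZA and 0.52 with CHQ. Agrn, agrin, the proteoglycan that clusters acetylcholine receptors at the neuromuscular junction, read 14.90, 14.19, 15.33 and 14.10. It was called higher with AZA by 1.14 and lower with CHQ than with AZA, at -1.23, and its dimmer probe gave -0.48 and -0.27. The mean of the probes of Agrn was 0.33 with AZA, below the call.

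Fn1, fibronectin, the matrix ligand that aggregating cells assemble into fibrils, followed the nidogens. It read 15.30 in ES, 14.21 in ELA, 16.29 in AZA and 15.44 in CHQ, at chr1:71632116-71632175 (mm9). It was called lower in ELA, at -1.09 (2.13-fold), and higher with AZA by 2.08 (4.23-fold) and with CHQ by 1.23 (2.34-fold), the last of which was 0.43 on spike-in scaling. Sparc, a secreted collagen-binding glycoprotein, read 16.82, 16.09, 16.47 and 16.31 and was called in no comparison, although its dimmer probe gave -1.24 for ELA minus ES.

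Mfap4, a microfibril-associated glycoprotein, differed most between the drugs. It read 10.10 in ES, 11.43 in ELA, 12.58 in AZA and 9.01 in CHQ, at chr11:61302147-61302206 (mm9). It was called higher in ELA by 1.33 (2.52-fold), higher with AZA by 1.15 (2.22-fold) and lower with CHQ, at -2.42 (5.34-fold). On spike-in scaling ELA minus ES was 0.76 and AZA minus ELA 0.92, below the call. CHQ minus AZA was -3.57 (11.8-fold), a comparison within a slide and the largest difference of the 41 genes there. It was the one gene of the 41 called in opposite directions by the drugs.

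The lysyl oxidases cross-link collagen and elastin outside the cell. Loxl2 read 9.02 in ES, 10.24 in ELA, 11.05 in AZA and 11.49 in CHQ, and was called higher in ELA by 1.22 and with CHQ by 1.25. Its other 2 probes gave 0.15 and 0.66 for ELA minus ES, and 0.74 and 1.51 for CHQ minus ELA. All 3 probes of Loxl2 were lowest in ES and highest with CHQ, and no more than 3 of the 6 other ways of processing left either difference at 1 or more. Lox lay between 6.17 and 6.54, well above background with CHQ alone.

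Over these 10 genes, 2 were called higher and 2 lower of 9 between ES and ELA, each 22.2%, beside 4.51% and 5.5% of all genes, with a median of -0.72 beside -0.01 over all genes tested. With AZA, 6 of 9 (66.7%) were called higher and 0 lower, beside 14.2% and 11.4% of all genes, with a median of 1.15 beside -0.07. With CHQ, 5 (55.6%) were called higher and 1 (11.1%) lower, beside 14.8% and 11.9%, with a median of 1.23 beside -0.08. The CHQ median was 0.43 on spike-in scaling, and all 3 medians kept their sign in the 6 alternatives. Between the drugs, 0 of 9 were called higher with CHQ and 2 (22.2%) lower, beside 5.6% and 4.8% of all genes. CHQ read above AZA in 2 of the 9, with a median of -0.65, opposite in sign to that of the collagens and laminins.

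**Figure D3:**
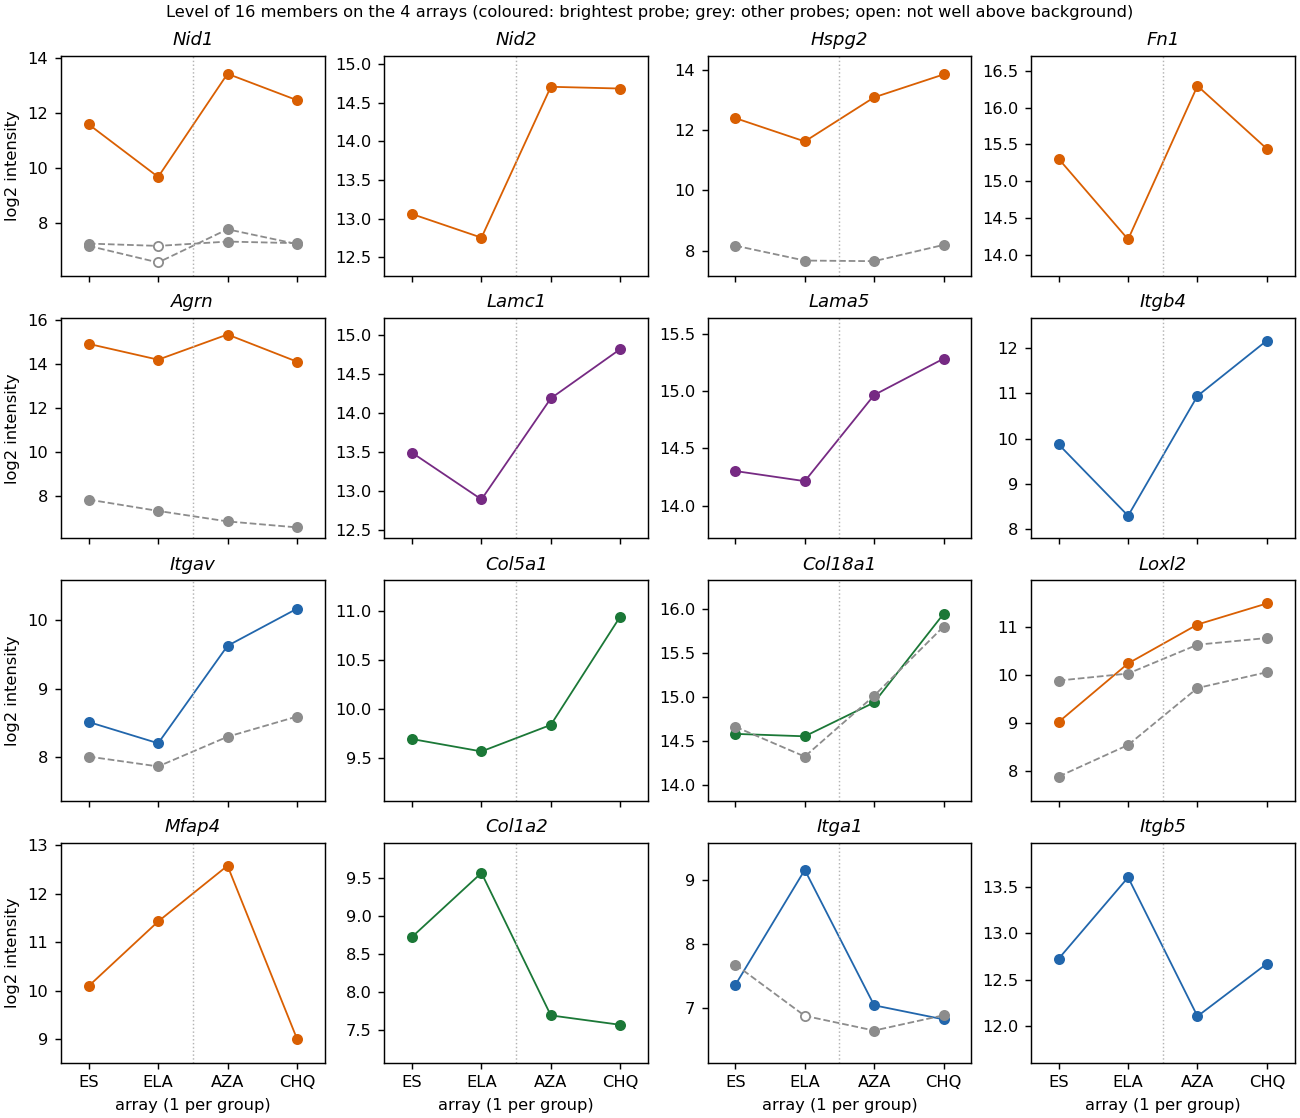
Log2 intensity of 16 of the genes on the ES, ELA, AZA and CHQ arrays, 1 array each, with a dotted line between the slides and a separate axis in each panel. The coloured line is the brightest probe and grey lines are other probes, whose heights are not comparable between probes. Nid1, Nid2, Hspg2, Fn1, Lamc1, Itgav and Itgb4, picked as higher than ELA with both drugs, have their lowest coloured point on the ELA array.

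Integrins are pairs of an alpha and a beta chain that bind matrix outside the cell and actin or keratin inside it. Itgb4, the beta chain that pairs with Itga6 to bind laminin in hemidesmosomes, had the largest differences of the receptors under both drugs. It read 9.87 in ES, 8.29 in ELA, 10.94 in AZA and 12.17 in CHQ, at chr11:115869666-115869725 (mm9). It was called lower in ELA, at -1.58 (2.98-fold), higher with AZA by 2.65 (6.27-fold) and higher with CHQ by 3.87 (14.7-fold), and CHQ exceeded AZA by 1.22. Itga6, its only alpha partner, read 14.95, 15.46, 15.18 and 15.39 and was called in no comparison. Itga3, another laminin-binding alpha chain, read 10.39, 9.02, 8.0 and 9.26, and was called lower in ELA, at -1.38, lower with AZA, at -1.02, and higher with CHQ than with AZA by 1.26.

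The chains that bind fibronectin and other ligands with an RGD motif varied in direction. Itgav read 8.51 in ES, 8.20 in ELA, 9.63 in AZA and 10.17 in CHQ, and exceeded ELA by 1.43 (2.69-fold) and by 1.97 (3.92-fold). A dimmer probe of Itgav gave 0.43 and 0.73, in the same direction but below the call. Itgb5, a beta partner of Itgav that binds vitronectin, moved the other way, at 12.73, 13.60, 12.11 and 12.67, and was called lower with AZA, at -1.49 (2.82-fold). Itgb3, another beta partner of Itgav, read 8.19, 6.90, 7.78 and 7.72 and was called lower in ELA, at -1.29, while its other probe was not well above background on any array. Itga5, the alpha chain of the main fibronectin receptor, read 8.71, 8.06, 7.80 and 7.5 and was called nowhere.

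Itgb1, the beta chain shared by the receptors for laminin, collagen and fibronectin, read 12.07 in ES, 11.69 in ELA, 10.69 in AZA and 10.88 in CHQ. It was called lower with AZA, at -1.0, the limit of the rule, and its other probe gave -1.53 with AZA and -1.32 with CHQ. The collagen-binding alpha chain Itga1 read 7.36, 9.15, 7.05 and 6.83, and was called higher in ELA by 1.79 and lower with AZA, at -2.10, and with CHQ, at -2.32. The other probe of Itga1 was not well above background in ELA, and by it ES exceeded ELA at least 1.74-fold, opposite in direction to the brightest probe. With its ELA reading taken as it stands, that probe gave -0.23 with AZA and 0.01 with CHQ. The mean of the probes of Itga1 was then 0.50 between ES and ELA, below the call, -1.17 with AZA and -1.16 with CHQ. Itga2, the related collagen receptor chain, lay between 5.83 and 6.23 and was not well above background on any array. Dag1, dystroglycan, lay between 11.94 and 12.15 and its largest difference was -0.14, between CHQ and AZA.

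Over the 11 receptors, 1 of 10 (10%) was called higher and 3 (30%) lower between ES and ELA, beside 4.51% and 5.5% of all genes, with a median of -0.35. With AZA, 2 of 9 (22.2%) were called higher and 4 (44.4%) lower, beside 14.2% and 11.4% of all genes, with a median of -0.29. With CHQ, 2 (22.2%) were called higher and 1 (11.1%) lower, beside 14.8% and 11.9%. The CHQ median of -0.08 had no settled sign, at 0.01 with the quantile-normalised processed signal, -0.51 on scaling to the 75th percentile and -0.96 on spike-in scaling. The median of all genes tested was -0.26 on the 75th percentile and -0.64 on spike-in scaling. Between the drugs, 2 of 9 (22.2%) were called higher with CHQ and 0 lower, beside 5.6% and 4.8% of all genes. CHQ read above AZA in 6 of the 9, with a median of 0.21, and below it for Itga5 (-0.30), Itgb3 (-0.06) and Dag1 (-0.14).

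**Figure D4:**
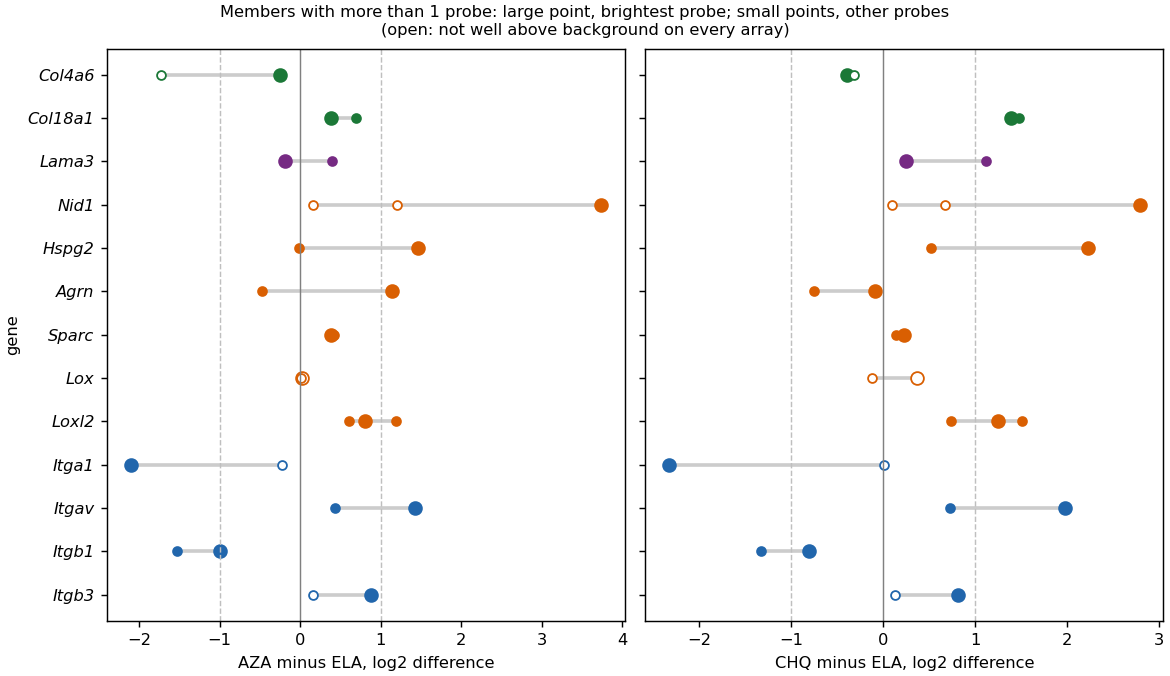
Log2 differences of the 13 genes with more than 1 probe, with AZA against ELA on the left and CHQ against ELA on the right, with the brightest probe as the large point and dashed lines at -1 and 1. Nid1, Hspg2, Agrn and Itga1 have probes far apart, whereas those of Sparc and Col18a1 lie close together, and the smaller points of Nid1, Itga1, Itgb3 and Lox rest on ELA readings not well above background.

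Of the 13 genes with more than 1 probe, all probes had the same sign in 12 between ES and ELA, in 10 with AZA, in 11 with CHQ and in 10 between the drugs. Probes not well above background on an array entered these counts at their readings. The median span between the probes of a gene was 0.51, 0.72, 0.68 and 0.30 in these comparisons. Calls on Agrn, Col18a1, Hspg2, Itgav and Loxl2 include ones that another probe of the gene did not reach, and the other probes of Nid1, Itga1 and Itgb3 were not well above background in ELA.

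Calls that rest on arrays of 1 slide are free of the difference between slides. Between ES and ELA the calls were Loxl2, Mfap4 and Itga1 higher and Nid1, Fn1, Itga3, Itgb3 and Itgb4 lower. Between AZA and CHQ they were Col4a2, Col4a5, Col5a1, Col6a1, Col18a1, Itga3 and Itgb4 higher with CHQ, and Agrn and Mfap4 lower. Nid1 and Fn1 just missed the latter call, at -0.96 and -0.85. Mfap4, Itga3 and Itgb4 were called in both, each in opposite directions.

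**Figure D5:**
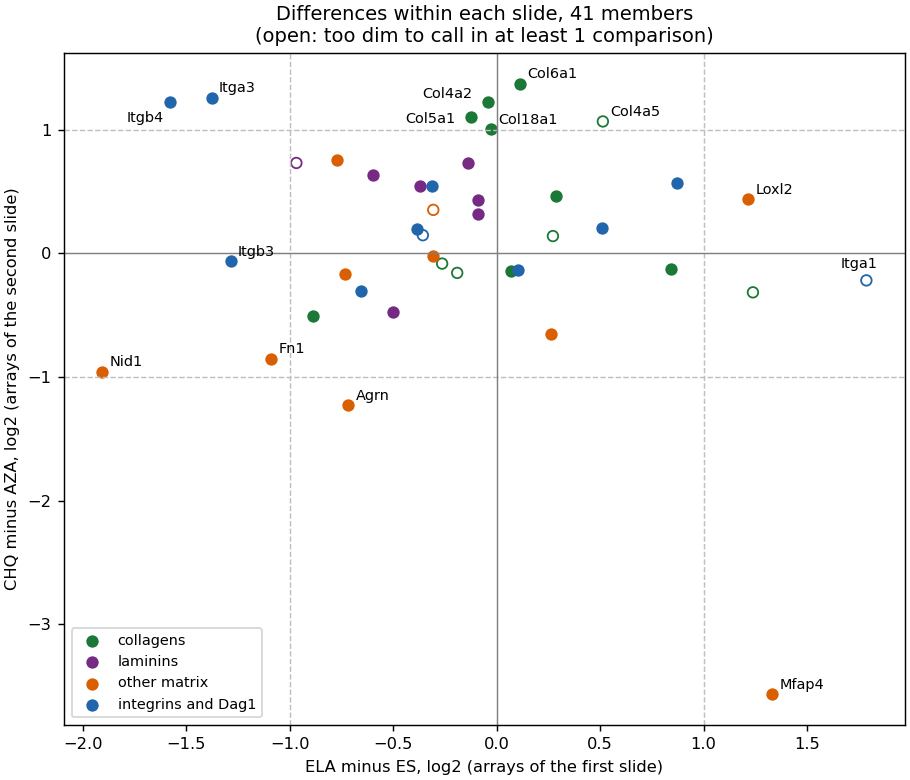
Log2 difference of ELA minus ES (horizontal, first slide) against CHQ minus AZA (vertical, second slide) for the 41 genes, with dashed lines at -1 and 1 and open points for genes too dim to call in at least 1 comparison. Mfap4 lies alone at the lower right, at 1.33 and -3.57, and 5 collagens lie above 1 on the vertical axis.

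Related genes outside the 41 were counted by list, to be read beside the shares of all genes given above. Of 36 matrix genes, 35 were on the array, and 16 to 21 were bright enough to test. With CHQ, 9 of 21 tested were called higher and 2 lower, and with AZA 4 of 16 were called higher and 5 lower. Lamb3, the beta chain of the skin laminin, read 8.82 in ES, 7.83 in ELA, 9.09 in AZA and 10.77 in CHQ, a difference from ELA of 2.94 with CHQ. Fbln2, a fibulin that binds nidogen and fibronectin, read 9.03, 9.0, 11.75 and 11.53, differences of 2.75 and 2.53. Fras1, of the complex that anchors embryonic epidermis, read 7.56 in ES, 9.20 in ELA and 8.17 in CHQ and was not well above background with AZA. It was called higher in ELA by 1.64, and ELA exceeded AZA at least 7.27-fold.

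Of 16 other integrin chains, 3 of 7 tested were called higher with AZA and 5 of 9 with CHQ, with 0 lower in either, and 2 of 9 were called lower in ELA than in ES. Itgb7, a beta chain best known from lymphocytes, read 11.53 in ES, 8.86 in ELA, 12.07 in AZA and 11.72 in CHQ. It was called lower in ELA, at -2.68, and higher by 3.21 with AZA and by 2.86 with CHQ. Itga8, which binds nephronectin in the embryonic kidney, read 8.77, 7.20, 7.72 and 11.26, and exceeded ELA by 4.06 with CHQ alone.

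Of 18 adaptors that join integrins to actin, 0 were called higher with either drug, 3 of 16 were called lower with AZA and 1 of 15 with CHQ. Zyx, zyxin, read 13.38 in ES, 14.25 in ELA, 12.40 in AZA and 12.27 in CHQ, with differences from ELA of -1.84 and -1.98. Parva read 10.43, 10.05, 8.10 and 9.81, a difference of -1.95 with AZA, and Ilk, its partner kinase, gave -1.01 with AZA.

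Of 22 matrix proteases and their inhibitors, 5 of 15 were called higher and 3 lower with AZA, and 5 of 16 higher and 3 lower with CHQ. Timp2, an inhibitor of matrix metalloproteinases, read 10.61 in ES, 11.50 in ELA, 8.74 in AZA and 8.67 in CHQ, with differences from ELA of -2.76 and -2.84. Adamts1, a protease that cuts proteoglycans, gave -2.94 with AZA and -2.31 with CHQ.

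Markers of cells known to secrete these proteins moved on the same arrays. Of all gene spots, 60.6% were well above background in ES, 55.1% in ELA, 69.1% in AZA and 69.2% in CHQ. Counts of detected markers are to be read beside these shares, which differ between the slides. Among all genes tested, 4.51% were called higher and 5.5% lower between ES and ELA. These shares were 14.2% and 11.4% with AZA, and 14.8% and 11.9% with CHQ. Of 14 primitive endoderm markers, 8 were well above background in ES, 6 in ELA, 13 in AZA and 12 in CHQ, and Ttr on none. Their summed linear intensity was 10734 in ES, 14096 in ELA, 7113 in AZA and 10927 in CHQ, a sum of which Lrp2 was the largest term in ELA, and their median intensity was 115.7, 106.5, 211.7 and 239.3. With AZA, 3 of 8 tested were called higher, Hnf4a, Srgn and Cubn, and 3 lower, Lrp2, Foxa2 and Dab2. With CHQ, 4 of 9 were called higher, Gata6, Sox17, Hnf4a and Cubn, and 3 lower, Foxa2, Dab2 and Amn. Gata6 and Hnf4a were not well above background in ELA, so their differences from it are bounds. Gata6 read 9.89 with CHQ, at least 9.15-fold above ELA, and Hnf4a read 10.82 with AZA and 9.11 with CHQ, at least 19.8-fold and 6.06-fold above it. Lrp2 read 13.07, 13.53, 10.62 and 12.60, and was called lower with AZA, at -2.90. Of 10 markers of fibroblast-like mesenchyme, 6 were well above background in ES and 7 on each other array, with Lum, Postn and Prrx1 on none. Their summed intensity, of which Tagln was the largest term in ES and ELA and Thy1 in AZA and CHQ, was 55114, 28718, 10720 and 5203, while their median intensity was 187, 321, 152 and 181. Dcn, Thy1 and Twist1 were called higher in ELA than in ES, and Acta2, Tagln and S100a4 lower. With AZA 1 of 6 was called higher, Pdgfrb, and 4 lower, and with CHQ 0 of 7 higher and 4 lower, with Acta2 at -3.87 and -3.96 against ELA. Of the 5 markers of pluripotent cells, Nanog and Zfp42 were called lower in ELA than in ES and higher with AZA than in ELA, and Zfp42 was called higher with CHQ too. Nanog read 15.01 in ES, 12.53 in ELA, 15.41 in AZA and 12.54 in CHQ, with differences of -2.47 for ELA minus ES and 2.88 with AZA, the latter 0.66 at its lowest among the 6 alternatives. Zfp42 read 15.76, 11.99, 15.74 and 15.06, with -3.76, 3.74 with AZA and 3.06 with CHQ. Zfp42 was thus lowest on the ELA array, as were Nid1, Fn1 and Itgb4, and Nanog was as low with CHQ as in ELA, whereas Pou5f1, Sox2 and Utf1 were called in none of these comparisons. Of 8 trophoblast markers 7 were well above background in ES, 4 in ELA, 6 in AZA and 7 in CHQ. Tfap2c was called lower in ELA than in ES, at -2.85, and higher by 2.11 with AZA and 3.45 with CHQ, and Krt7 higher by 1.31 with CHQ. Krt8 was called lower with AZA, at -1.80, and with CHQ, at -1.20, and Krt18 likewise, at -1.48 and -2.23. The summed intensity of the trophoblast markers, of which Krt18 was the largest term on every array, was 122329, 88909, 34821 and 34669. Their median intensity was 426, 264, 480 and 646. Of 5 endothelial markers 3 were well above background on each array, with Cdh5 and Tie1 on none. Their sum was 9157, 9873, 6324 and 7085, and their median was 406, 154, 536 and 345. Tek was called lower in ELA, at -1.94, and higher by 2.45 with AZA and 3.75 with CHQ, Pecam1 higher by 1.12 with AZA, and Kdr lower with CHQ, at -1.05. The part of such cells in the differences of the 41 genes was not tested.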

How the data were processed

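Per the labels, Cy3-labelled RNA was hybridised to 1 array per group. The deposited scanner files, read per their headers with Agilent Feature Extraction 10.7.3.1 (the submitters' processing notes list 9.1), hold spot intensity and local background intensity, not normalised between arrays, and quality flags. The deposited table of log2 expression, which the authors had background-corrected and then normalised by quantiles in limma, served as an alternative. It correlated with the levels used here at r = 0.991 to 0.992 across 55122 probes, and its medians were 6.20 to 6.24. Differences from ELA correlated less closely, at r = 0.926 for ES, 0.958 for AZA and 0.957 for CHQ.

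Here the mean intensity was corrected by normexp on the local background median (offset 50) and the gene spots of the 4 arrays were quantile-normalised in limma 3.58.1 (R 4.3.3). Outlier spots were dropped, spots of a probe averaged and each gene read from its brightest probe by mean level. Names were updated through RefSeq for 26582 probes. Probe coordinates are mm9, as deposited. The code was tested on simulated data.

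The text names all 41 genes and, per related list and comparison, at most 3 called genes with the largest differences. Marker genes were named after their values were seen. The genes, lists and rules were chosen with earlier results of these data known. Alternatives changed the scaling, background, probe and filter, and no p-value was computed. An array with knockdown was not analysed here.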

Additional observations from a re-analysis of the deposited data

How the results depend on the processing

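No paired analysis was possible because each group had 1 array, and no array could be left out for the same reason. Of the counts and group medians, 101 values stayed within the limits set by the spot spread or by 1.5 times the count and 23 moved, and 0 called differences reversed under any alternative. Calls below 1 in at least 1 alternative were, with AZA, Col1a1, Lamc1, Hspg2, Agrn, Mfap4, Itgav and Itgb1, with CHQ, Col5a1, Col18a1, Lama5, Fn1 and Loxl2, between ES and ELA, Nid1, Loxl2, Mfap4, Itga1 and Itgb3, and between the drugs, Col4a5, Col5a1, Col18a1, Agrn and Itgb4. Scaling to the 75th percentile gave medians of -0.54 for the receptors with AZA, 0.67 for other matrix and -0.51 for the receptors with CHQ, and 0.80 for the collagens between CHQ and AZA, where 4 genes were called higher and 2 lower, beside 7 and 2. The quantile-normalised processed signal gave 0.70 for other matrix with CHQ, and 10 genes higher and 3 lower with AZA, beside 10 and 5. Scaling on 7 spike-in probes shifted the median of all genes tested to -0.58 between ES and ELA, -0.42 with AZA, -0.64 with CHQ and -0.26 between the drugs. Under it 16 of the 41 genes were called between ES and ELA, 1 higher and 15 lower, beside 3 and 5, and the splits were 6 and 5 with AZA, 6 and 7 with CHQ, and 2 and 4 between the drugs. The medians of collagens, laminins, other matrix and receptors were then -0.53, -0.92, -1.43 and -0.91 for ELA minus ES, -0.30, -0.22, 0.92 and -0.80 with AZA, and 0.15, -0.0067, 0.43 and -0.96 with CHQ, and those of collagens, laminins and other matrix were 0.59, 0.26 and -0.85 between the drugs. Relative to the shift of all genes, collagens, laminins and other matrix lay above with AZA and CHQ, and the receptors lay below. The share of higher calls over all genes was 7.81% between ES and ELA on spike-in scaling, beside 45.1%, 33.3% with AZA, beside 55.4%, 20.5% with CHQ, beside 55.5%, and 33.9% between the drugs, beside 53.8%. It was 42.0% with CHQ on the 75th percentile. Taking the mean over probes left 4 genes called between ES and ELA, beside 8, and a median of 0.86 for other matrix with AZA. The cause was not tested. All 159 called differences in the related lists and markers kept their sign. The number of arrays limits the precision, and genes near background have only bounds.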
